A study of Mus musculus with 30 samples.

Results

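Liver gene expression after the triterpenoid CDDO-Me was compared between wild-type (WT) mice and C151S mice, which carry a Keap1 allele with serine in place of a reactive cysteine. The comparison rests on the 10 mRNA libraries labelled as CDDO-Me-treated WT or C151S (5 mice each), out of 30 libraries of WT, C151S, and Nrf2-knockout mice given CDDO-Me or vehicle. CDDO-Me (bardoxolone methyl) is an electrophilic oleanane triterpenoid. It was given once by mouth at 30 µmol/kg, and livers were taken at 24 hours.

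All mice were young adult males on an albino C57BL/6J background, so that both groups share the tyrosinase allele of that strain. WT mice were purchased, whereas homozygous C151S mice were bred as a line of their own from CRISPR-Cas9 edited founders, so that genotype and colony cannot be told apart. The mutation is present in every cell of the animal. Vehicle-treated mice received the solvent alone (dimethyl sulfoxide, Cremophor-EL, and PBS), and they serve here to show which genotype differences were present without the drug. The study's methods describe the 5 animals of a group as biologic replicates, so that p values measure the spread between mice.

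The 10 libraries held 27419840 to 37768767 counts on genes. The hepatocyte markers were abundant, with a summed level of 76116 to 163120 CPM (the count scaled to library size, with normalization by the trimmed mean of M values). Of the markers of pancreatic acinar cells 7 of 8, and of adipocytes 4 of 5, were at or under 3 counts in all 10 libraries. On the first principal component (38.6% of the variance) the WT mice lay between -38.6 and -3.615, and C151S replicate 1, at -5.89, lay among them. That mouse also stood apart on the second component. The C151S mice fell into separate sets by the clock gene Arntl, which encodes the activator BMAL1: replicates 1 and 2 had 12.8 and 13.9 CPM, whereas replicates 3, 4, and 5 had 0.722, 0.480, and 0.782 CPM. All 5 WT mice were on the high side, at 18.6, 16.6, 14.5, 13.2, and 11.7 CPM. The sets were defined from these values and are not groups by genotype or treatment. In the order of the samples, the high-Arntl C151S mice of both treatments come before the low-Arntl ones. The study's dates of isolation are not in the labels, so that the sets cannot be told apart from a batch of isolation. Results are given below also without the 3 low-Arntl mice, with only 2 C151S mice remaining.

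KEAP1 is the substrate adaptor of a ubiquitin ligase that marks the transcription factor NRF2 (encoded by Nfe2l2) for degradation. Electrophiles that modify reactive cysteines of KEAP1 let NRF2 accumulate, enter the nucleus, and bind antioxidant response elements (AREs) next to genes of glutathione synthesis, conjugation, quinone reduction, and NADPH supply. In the liver this pathway sets much of the capacity to detoxify electrophiles and drugs.

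The altered codon lies in exon 2 of 6 of Keap1 transcript ENSMUST00000049567.9, on the minus strand of chromosome 9 at chr9:21237257-21237259 (GRCm38). It is shown because it defines the C151S group. The stretch of coding reference sequence around it, from chr9:21237236-21237280, is given 5′ to 3′ with the cysteine codon in capitals.
Keap1: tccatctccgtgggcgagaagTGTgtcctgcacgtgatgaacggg
The counts per gene do not show this substitution and cannot check the labels. Keap1 itself (ENSMUSG00000003308.15, chromosome 9, 21229730 to 21239361) was at 72.4, 77.5, 61.6, 62.5, and 69.1 CPM in the WT mice and at 64.9, 42.0, 53.6, 54.2, and 56.1 CPM in the C151S mice. The values overlapped, and the difference did not pass the test (log2 fold change 0.32, SE 0.11, adjusted p = 0.11, edgeR's quasi-likelihood test, WT over C151S). Nfe2l2 (ENSMUSG00000015839.6, chromosome 2, 75675513 to 75704641) was at 52.8, 47.9, 59.7, 57.5, and 49.8 CPM in WT and at 42.0, 68.6, 71.9, 80.2, and 69.6 CPM in C151S. It did not pass the test either (log2 fold change -0.33, SE 0.15, adjusted p = 0.19). Of the 13 NRF2 pathway regulators tested, 0 were called by edgeR or by DESeq2, and 6 had an unadjusted p under 0.05.

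The ARE core TGACNNNGC, searched on both strands, was present in the promoter window (250 bases before to 50 after the start) of several genes whose transcripts were higher in WT mice. The windows are those of RefSeq for GRCm38.p6. Matches are shown for 5 genes of thiol and sugar nucleotide metabolism that are described below, in the direction of the gene, with the match in capitals.
Srxn1, chr2:152105542-152105570: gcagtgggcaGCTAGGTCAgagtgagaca
Gclm, chr3:122245413-122245441: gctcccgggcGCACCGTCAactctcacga
Txnrd1, chr10:82859104-82859132: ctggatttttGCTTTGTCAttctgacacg
Pgd, chr4:149166061-149166089: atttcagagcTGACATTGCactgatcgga
Ugdh, chr5:65435956-65435984: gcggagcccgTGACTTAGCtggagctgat
The Pgd and Ugdh matches read forward, and the other three read as the reverse complement. The Ugdh window held a further match, not shown, that reads as the reverse complement. Such a window held the letters in 20.6% of the genes higher in WT mice (61 of 296 with a window). The share was 17.3% of the genes higher in C151S mice (39 of 225), 16.7% of all genes tested, and 14.0% of all genes with a window. The windows of Nqo1, Cbr3, Gstm1, and Gstm4 did not hold these letters, which says nothing of sequence outside them. A match describes the letters and is not a measured binding site.

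Of 13844 genes tested, 692 (5.0%) were differentially expressed genes (DEGs) between CDDO-Me-treated WT and C151S mice. The thresholds were a false discovery rate (FDR) under 0.05 and a log2 fold change of 0.5 or more in either direction. Of these, 388 (2.80% of genes tested) were higher in WT and 304 (2.20%) were higher in C151S. The median log2 fold change, WT over C151S, was 0.89 among the former and -0.92 among the latter, with -0.027 over all genes tested. The values of the 5 WT and the 5 C151S mice did not overlap for 336 of the 388 genes and for 175 of the 304, beside 1045 of all genes tested (7.55%, of which 5.0% of genes tested were higher in WT and 2.55% in C151S). With each mouse left out in turn the number of DEGs ranged from 379 to 1303. It rose to 1303 without C151S replicate 1, fell to 421 and 423 without C151S replicates 5 and 4, and fell to between 379 and 441 without any of WT replicates 1 to 4. In all 10 such fits 303 of the DEGs were called, 208 of them higher in WT and 95 higher in C151S. Without the 3 low-Arntl C151S mice 294 genes (2.03%) passed, 204 of them higher in WT (1.41%) and 90 higher in C151S (0.621%). The calls retained from the full comparison were 148 of the 388 and 49 of the 304. The direction was the same for all 388 of the former and for 302 of the latter, beside 11008 of all 13844 genes tested. That fit reuses libraries of the full comparison, so that the direction is not an independent check. Tissue RNA is a mixture, so that fewer cells of a type and less RNA per cell cannot be told apart in any of these values.

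Of the quinone, carbonyl, and aldehyde enzymes 14 of 27 tested were higher in WT and 0 were higher in C151S. Over all genes tested the shares were 2.80% and 2.20%, which stand beside each list count below. Nqo1 (ENSMUSG00000003849.8, chromosome 8, 107388225 to 107403206) encodes NAD(P)H quinone dehydrogenase, a standard readout of NRF2. It was at 55.1, 48.3, 52.6, 57.1, and 109 CPM in the 5 WT mice and at 5.56, 7.51, 6.43, 8.11, and 7.66 CPM in the 5 C151S mice. The groups were far apart, and WT replicate 5 lay well above its own group (log2 fold change 3.17, SE 0.23, adjusted p = 1.5e-05, edgeR). In vehicle-treated mice Nqo1 was at 9.23, 9.20, 4.51, 8.33, and 4.73 CPM in WT and 6.301, 7.34, 6.54, 6.67, and 6.68 CPM in C151S. The C151S mice given the drug lay within the range of the vehicle-treated mice of both genotypes together. Their values reached past the range of vehicle-treated C151S mice on both sides. Cbr3 (ENSMUSG00000022947.8, chromosome 16, 93683215 to 93690990) encodes a carbonyl reductase and was at 14.2, 16.2, 22.2, 20.9, and 35.1 CPM in WT and at 0.407, 0.512, 0.408, 0.565, and 0.674 CPM in C151S. The lowest WT mouse lay far above the highest C151S mouse (log2 fold change 5.36, SE 0.28, adjusted p = 2.4e-06). Its neighbour Cbr1 was at 322 ± 81.4 CPM against 98.1 ± 29.999 CPM (mean ± SD, n = 5 each; log2 fold change 1.70, SE 0.22, adjusted p = 0.0012).

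Other members of that list act on epoxides and aldehydes. Ephx1, the microsomal epoxide hydrolase, was at 1108, 1077, 1346, 1365, and 1534 CPM in WT and 212, 436, 383, 388, and 433 CPM in C151S (log2 fold change 1.78, SE 0.19, adjusted p = 2.9e-04, edgeR). The low C151S value belongs to replicate 1. Aox1, an aldehyde oxidase, differed by 2.13 log2 units (SE 0.16, adjusted p = 2.0e-05), and Akr1b8, an aldo-keto reductase, by 1.71 (SE 0.17, adjusted p = 1.6e-04). Aldh1a1, a retinaldehyde dehydrogenase, was at 2712, 2863, 3006, 2947, and 1843 CPM in WT and 1336, 607, 1395, 672, and 551 CPM in C151S. Its groups did not overlap, although WT replicate 5 was the lowest of its group (log2 fold change 1.53, SE 0.28, adjusted p = 0.0097). Its log2 fold change was 1.45 without the low-Arntl mice, and it was not called (adjusted p = 0.06). Aldh1a1 was also called after vehicle (log2 fold change 0.89, adjusted p = 0.026, edgeR). The difference between treatments did not pass edgeR's interaction test (adjusted p = 0.57).

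**Figure D1:**
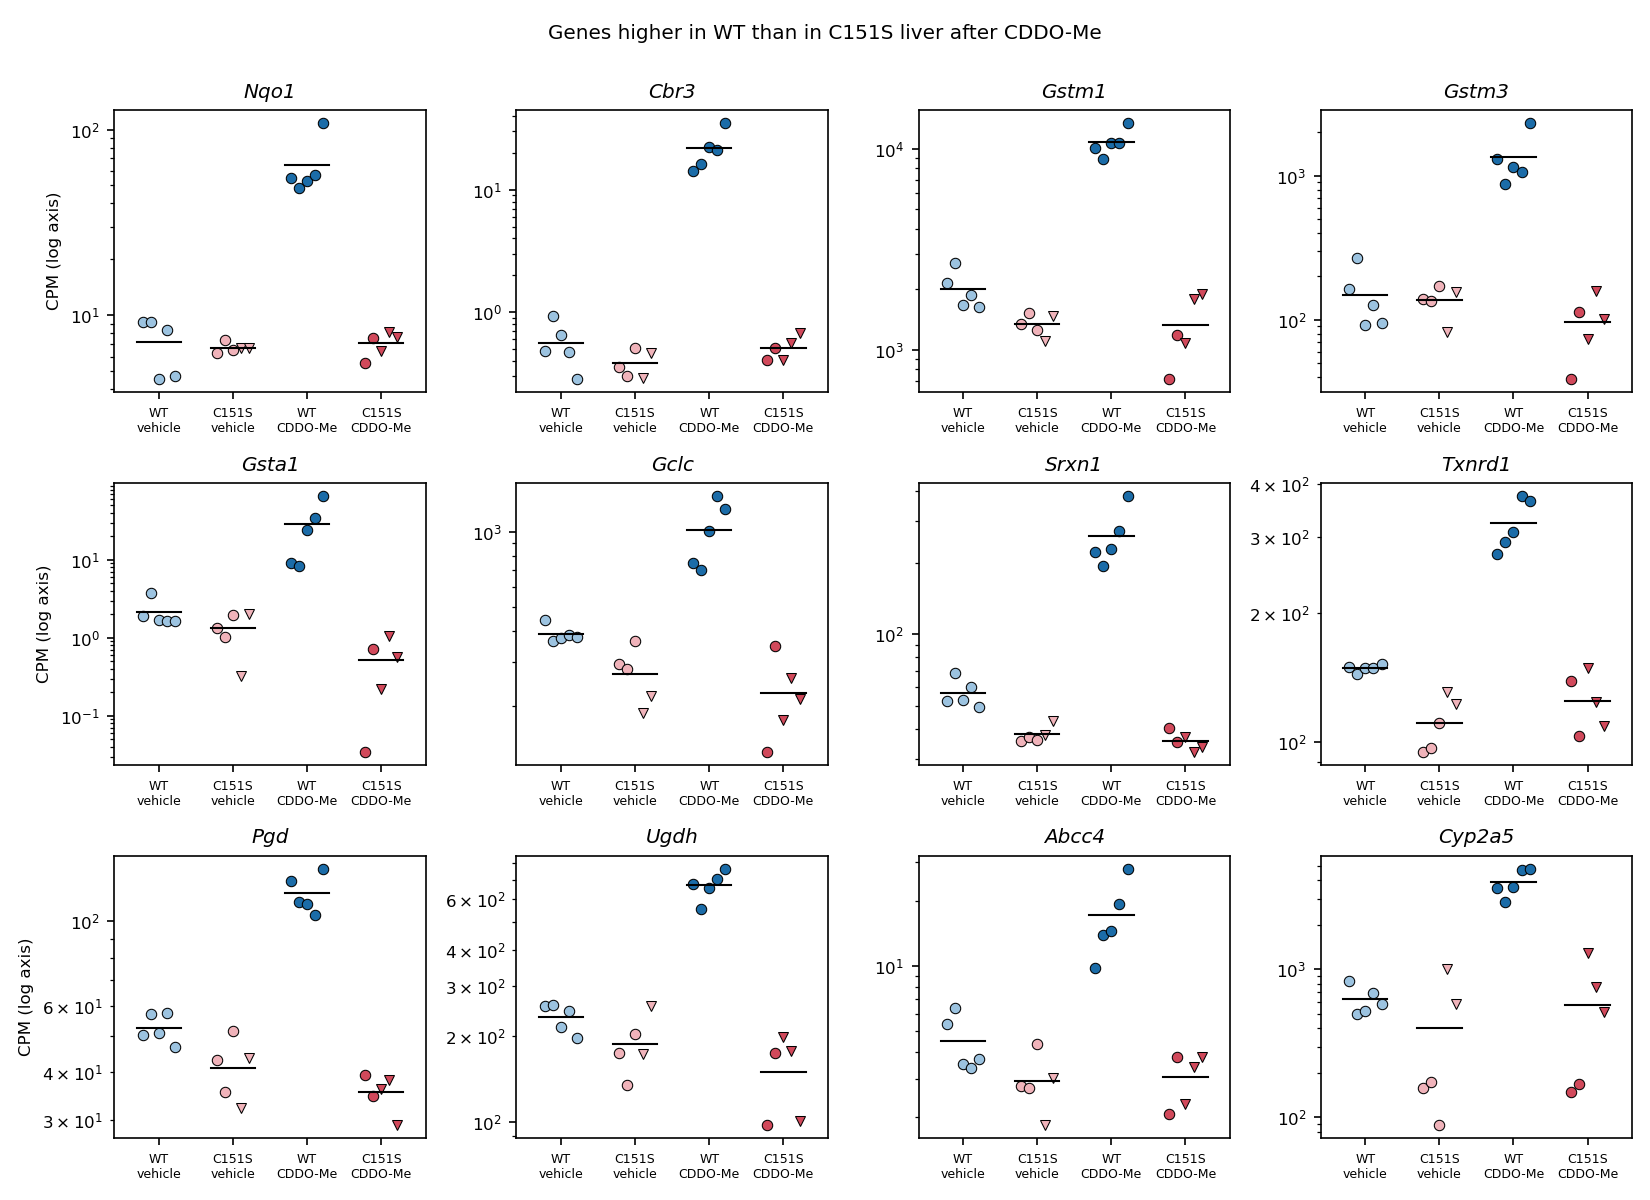
CPM on a log axis in each mouse for 12 genes higher in WT mice after CDDO-Me, with vehicle-treated mice in pale colours. Bars are means of 5 mice, triangles mark C151S mice with low Arntl, and in every panel all 5 CDDO-Me-treated WT mice lie above all 5 C151S mice.

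Of the glutathione S-transferases, which conjugate electrophiles to glutathione, 11 of 22 tested were higher in WT and 0 were higher in C151S. None of the 11 overlapped between groups, beside 336 without overlap among all 388 genes called higher in WT in the same libraries. Gstm1 (ENSMUSG00000058135.12, chromosome 3, 108012255 to 108017973) was at 10128, 8891, 10706, 10663, and 13481 CPM in WT and at 712, 1183, 1083, 1795, and 1893 CPM in C151S, which made it one of the abundant transcripts of the treated WT liver (log2 fold change 2.997, SE 0.27, adjusted p = 7.2e-05, edgeR). Gstm4 (ENSMUSG00000027890.17, chromosome 3, 108040408 to 108044894) had the lowest p of all genes tested, with 319, 285, 275, 289, and 335 CPM in WT and 47.2, 53.3, 43.9, 61.1, and 57.4 CPM in C151S (log2 fold change 2.49, SE 0.11, adjusted p = 9.3e-07). Both groups were tight, and the gap between them was larger than the range within either. Gstm3 was at 1301, 873, 1151, 1068, and 2327 CPM against 38.5, 114, 73.6, 159, and 101 CPM (log2 fold change 3.77, SE 0.39, adjusted p = 2.1e-04). In the alpha class, Gsta1 was at 9.16, 8.27, 24.5, 34.5, and 66.4 CPM in WT and at 0.0339, 0.717, 0.220, 1.05, and 0.566 CPM in C151S, where replicate 1 had 1 count (log2 fold change 5.71, SE 0.73, adjusted p = 0.0011). Gstp1, of the pi class, was at 1829 ± 223 CPM against 636 ± 165 CPM (mean ± SD, n = 5 each; log2 fold change 1.51, SE 0.18, adjusted p = 6.2e-04). These families hold near-identical copies, and reads that fit several copies were not counted, so that the split between members is uncertain.

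Glutathione synthesis and reduction gave 6 of 16 tested higher in WT and 0 higher in C151S. Gclc, the catalytic subunit of the rate-limiting ligase, was at 751, 703, 1008, 1391, and 1229 CPM in WT and 131, 348, 177, 260.5, and 214 CPM in C151S (log2 fold change 2.14, SE 0.28, adjusted p = 0.0011, edgeR). Gclm, its modifier subunit with the ARE match printed above, was at 287, 284, 308, 365, and 317 CPM and 189.8, 174, 186, 177, and 163 CPM (log2 fold change 0.79, SE 0.092, adjusted p = 5.3e-04). The difference was smaller for the modifier than for the catalytic subunit, with no overlap for either. Gsr, which reduces oxidised glutathione, was at 143 ± 21.7 CPM in WT and 57.5 ± 5.91 CPM in C151S (mean ± SD, n = 5 each; log2 fold change 1.29, SE 0.12, adjusted p = 7.6e-05). Gpx2, a glutathione peroxidase best known from gut epithelium, was at 0.979, 0.463, 0.847, 0.557, and 1.38 CPM in WT, whereas 4 counts fell on it in the 5 C151S libraries together. The ratio of summed counts, WT over C151S, was 36.4 (95% interval 13.9 to 136, exact binomial, counting error only). Without the low-Arntl mice 5 members were higher in WT and 1 was higher in C151S.

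The thioredoxin system reduces protein disulfides with NADPH. Here 4 of 14 tested genes were higher in WT and 0 were higher in C151S. Srxn1 (ENSMUSG00000032802.8, chromosome 2, 152105516 to 152111376), which repairs over-oxidised peroxiredoxins, was at 222, 193, 227, 272, and 382 CPM in WT and 40.3, 35.3, 37.1, 31.8, and 33.4 CPM in C151S (log2 fold change 2.84, SE 0.18, adjusted p = 1.0e-05, edgeR). Txnrd1, the cytosolic thioredoxin reductase, was at 274, 293, 309.7, 375, and 365 CPM and 139, 103, 149, 124, and 109 CPM (log2 fold change 1.36, SE 0.13, adjusted p = 1.1e-04). Its substrate Txn1 differed less, by 0.82 log2 units (SE 0.081, adjusted p = 1.6e-04). All 4 called genes were without overlap between groups, as were 336 of all 388 genes called higher in WT.

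NADPH for these reductases comes largely from the pentose phosphate pathway, and 4 of 11 genes of NADPH supply were higher in WT, with 0 higher in C151S. Pgd, phosphogluconate dehydrogenase, was at 128, 113, 111, 104, and 138 CPM in WT and 39.2, 34.6, 36.1, 38.1, and 29.0 CPM in C151S (log2 fold change 1.72, SE 0.11, adjusted p = 1.0e-05, edgeR). Tkt, transketolase, was at 275 ± 15.3 CPM against 112 ± 25.4 CPM (mean ± SD, n = 5 each; log2 fold change 1.28, SE 0.14, adjusted p = 2.8e-04). G6pdx, which opens the pathway, was at 8.45, 9.92, 10.6, 7.83, and 11.4 CPM and 2.24, 4.46, 2.23, 3.93, and 3.61 CPM, with low levels in both groups (log2 fold change 1.52, SE 0.21, adjusted p = 0.0017). Me1, malic enzyme, was at 223, 257, 261, 289, and 134 CPM and 54.3, 49.4, 150.6, 84.1, and 43.6 CPM. WT replicate 5 lay under C151S replicate 3, so that its groups overlapped (log2 fold change 1.59, SE 0.33, adjusted p = 0.018).

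Of the genes of glucuronidation, which couples drugs and bilirubin to glucuronic acid, 11 of 21 were higher in WT and 0 were higher in C151S. Ugdh, which makes UDP-glucuronic acid, was at 680.3, 553, 656, 708, and 766 CPM in WT and 97.6, 175, 199, 177, and 101 CPM in C151S (log2 fold change 2.14, SE 0.21, adjusted p = 1.5e-04, edgeR). The transferase Ugt2b35 was at 739, 815, 908, 927, and 765 CPM and 131, 136, 229, 131, and 130.4 CPM, and C151S replicate 3 lay above the other 4 of its group (log2 fold change 2.44, SE 0.17, adjusted p = 1.4e-05). Slc35d1, which carries the sugar nucleotide into the endoplasmic reticulum, differed by 1.16 log2 units (SE 0.10, adjusted p = 7.2e-05), and Entpd5, a nucleoside diphosphatase of that compartment, by 1.66 (SE 0.14, adjusted p = 6.9e-05). The called genes thus covered the donor, its carrier, and the transferases.

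Carboxylesterases, which hydrolyse ester drugs and lipids, gave 5 of 15 higher in WT and 0 higher in C151S. Ces1g was at 590.4, 606, 821, 709, and 727 CPM in WT and 64.3, 55.0, 202, 83.5, and 46.2 CPM in C151S (log2 fold change 2.92, SE 0.37, adjusted p = 0.001, edgeR). Ces2c was at 32.1, 34.6, 51.4, 49.6, and 36.5 CPM and 1.73, 3.07, 10.5, 3.64, and 2.75 CPM (log2 fold change 3.22, SE 0.41, adjusted p = 0.0011). C151S replicate 3 was the highest of its group for both genes. In vehicle-treated mice this list likewise had 5 genes higher in WT and 0 higher in C151S. Both Ces1g and Ces2c were called there, differing by 1.19 and 2.30 log2 units (adjusted p = 0.013 and 0.0068, edgeR). Neither gene passed edgeR's test of the difference between treatments (adjusted p = 0.12 for Ces1g and 0.61 for Ces2c). That test passed for 1 member of the list, Ces1b. Ces1h had 83 counts over the 5 WT libraries and 1 count over the 5 C151S libraries, a ratio of 95.2 (95% interval 16.6 to 3804, exact binomial, counting error only).

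Among ABC transporters, which export conjugates, 5 of 17 were higher in WT and 0 were higher in C151S. Abcc4 was at 9.79, 13.9, 14.5, 19.3, and 28.0 CPM in WT and 2.07, 3.79, 2.29, 3.39, and 3.77 CPM in C151S (log2 fold change 2.45, SE 0.28, adjusted p = 4.7e-04, edgeR). Abcc3, the basolateral exporter of glucuronides, was at 702 ± 134 CPM against 250.1 ± 67.3 CPM (mean ± SD, n = 5 each; log2 fold change 1.47, SE 0.21, adjusted p = 0.0022). Abcc12 was at 1.72, 3.44, 3.70, 6.22, and 6.37 CPM and 0.237, 1.69, 0.722, 1.19, and 0.728 CPM, and its difference had the opposite sign after vehicle (log2 fold change -1.18, adjusted p = 0.046). Its log2 fold change was 2.09 without the low-Arntl mice against 2.19 with them, and the call was lost (adjusted p = 0.18).

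Genes of heme and iron handling divided: 5 of 17 were higher in WT and 1 was higher in C151S. Blvrb, biliverdin reductase B, was at 226, 205, 239, 244, and 237 CPM in WT and 78.3, 52.1, 92.6, 72.0, and 77.8 CPM in C151S (log2 fold change 1.61, SE 0.13, adjusted p = 4.3e-05, edgeR). Ftl1, the ferritin light chain, was at 3061, 2650.1, 2853, 2775, and 3479 CPM and 1104, 1572, 1517, 1758, and 1288 CPM (log2 fold change 1.01, SE 0.15, adjusted p = 0.0026). Hmox1, heme oxygenase 1 and a widely used NRF2 target, was at 15.1, 15.3, 15.1, 15.9, and 21.9 CPM and 14.2, 24.7, 17.8, 21.1, and 18.5 CPM. It overlapped between groups and did not pass the test (log2 fold change -0.23, SE 0.16, adjusted p = 0.39). The gene higher in C151S was Hamp2, a hepcidin paralog, at 11.2, 11.7, 12.7, 22.2, and 17.0 CPM in WT and 6.13, 36.6, 64.2, 174, and 94.8 CPM in C151S. C151S replicate 1 lay under all WT mice, and without the low-Arntl mice the log2 fold change, C151S over WT, was 0.53 against 2.34 with them and was not called (adjusted p = 0.67).

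Of the cytochromes P450 of xenobiotic metabolism, 3 of 36 were higher in WT and 0 were higher in C151S. Cyp2a5, a coumarin hydroxylase, was at 3542, 2839, 3569, 4653, and 4762 CPM in WT and 148, 169, 1287, 759, and 509.9 CPM in C151S (log2 fold change 2.74, SE 0.53, adjusted p = 0.012, edgeR). The high-Arntl C151S mice, replicates 1 and 2, had the lowest values. Cyp1a2 was at 1233 ± 196 CPM against 417 ± 199 CPM (mean ± SD, n = 5 each; log2 fold change 1.55, SE 0.28, adjusted p = 0.0079). The list's main drug-inducible members did not follow: Cyp3a11 was at 4085 ± 253 CPM in WT and 4521 ± 1852 CPM in C151S (adjusted p = 0.76), and Cyp2b10 at 16.1 ± 8.39 CPM and 28.7 ± 14.0 CPM (adjusted p = 0.2).

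In the 9 detoxification lists other than heme and iron, edgeR called 0 genes higher in C151S. There 15 genes had an unadjusted p under 0.05 in that direction, and DESeq2 called 5, of which 3 were cytochromes P450.

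**Figure D2:**
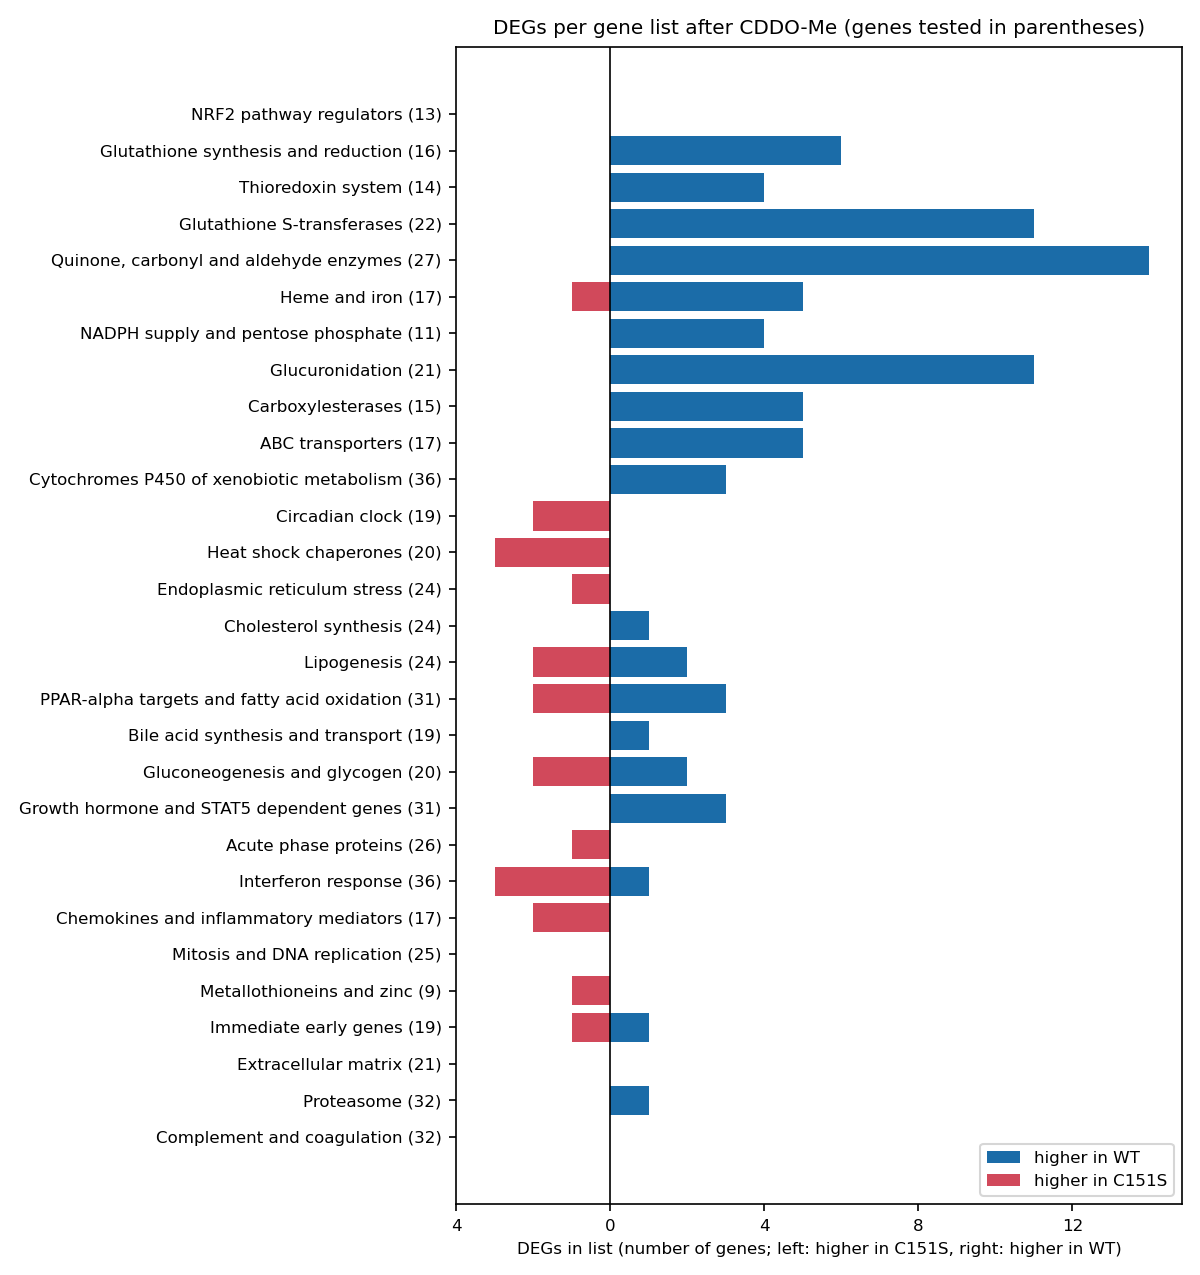
Number of DEGs in each of 29 gene lists after CDDO-Me, to the right for genes higher in WT and to the left for genes higher in C151S, with the number of genes tested in parentheses. The enzymes of quinone and carbonyl reduction, glutathione transfer, and glucuronidation hold 14, 11, and 11 genes higher in WT and 0 higher in C151S. Over all genes tested 2.80% were higher in WT and 2.20% in C151S.

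Outside detoxification, Gbe1, the glycogen branching enzyme, was at 232, 260.4, 267, 278, and 229 CPM in WT and 68.0, 57.1, 115, 86.0, and 76.9 CPM in C151S (log2 fold change 1.64, SE 0.16, adjusted p = 1.6e-04, edgeR). Ppp1r3c, which targets protein phosphatase 1 to glycogen, was at 182, 129.9, 118, 100.4, and 75.6 CPM and 53.3, 55.7, 26.2, 49.8, and 40.0 CPM (log2 fold change 1.41, SE 0.25, adjusted p = 0.0078). They were the 2 of 20 genes of gluconeogenesis and glycogen that were higher in WT. The 2 that were higher in C151S act in glucose output: Fbp1, fructose bisphosphatase, at 972, 814, 810.5, 804, and 889.9 CPM in WT and 1267, 1419.6, 1267, 1499.5, and 1385 CPM in C151S, and Foxo1, a transcription factor active in fasting, at 33.2 ± 10.1 CPM against 57.9 ± 10.02 CPM (mean ± SD, n = 5 each). Fbp1 was also called after vehicle (log2 fold change -0.53, adjusted p = 0.0089). Ppp1r3c and Foxo1 had log2 fold changes, WT over C151S, of 1.14 and -0.55 without the low-Arntl mice, against 1.41 and -0.82 with them, and were not called (adjusted p = 0.093 and 0.29). Myc, a growth-related transcription factor, was at 17.1, 17.6, 21.02, 22.2, and 36.8 CPM in WT and 3.56, 5.38, 7.81, 8.02, and 8.12 CPM in C151S (log2 fold change 1.78, SE 0.26, adjusted p = 0.0024).

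Several leading genes of the WT side lie outside the pathway lists. Vtcn1, an immune checkpoint ligand, was at 2.39, 3.54, 2.40, 2.90, and 3.35 CPM in WT and 0.136, 0.0769, 0, 0.0848, and 0.108 CPM in C151S (log2 fold change 5.09, SE 0.37, adjusted p = 1.5e-05, edgeR). It was also called after vehicle (log2 fold change 2.65, adjusted p = 0.0033). Its difference between treatments, 2.44 on the log2 scale, did not pass the interaction test of edgeR (adjusted p = 0.086). D630045J12Rik was at 12.9 ± 2.17 CPM against 1.96 ± 0.523 CPM (mean ± SD, n = 5 each), and the predicted genes Gm18635, Gm12498, and Gm34934 had log2 fold changes of 3.53, 5.18, and 2.06. Ide, the insulin-degrading enzyme, was singled out after its values were seen because it was called after both treatments. It was at 283, 246, 206, 215, and 212 CPM in WT and 91.6, 81.0, 84.0, 76.3, and 80.5 CPM in C151S after CDDO-Me (log2 fold change 1.47, SE 0.11, adjusted p = 1.5e-05). After vehicle it was at 220.2, 201, 226, 221, and 221 CPM and 74.0, 65.0, 83.9, 80.4, and 72.0 CPM, and the 2 differences did not differ detectably (log2 -0.045, SE 0.13).

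The next question was which of these differences exceeded the genotype difference without the drug. Between vehicle-treated WT and C151S mice 675 of 13946 genes tested (4.84%) were DEGs, 314 higher in WT (2.25%) and 361 higher in C151S (2.59%). That count was 1168 without C151S replicate 4, fell to 390, 418, and 404 without C151S replicate 2 or WT replicates 4 or 5, and was 2030 without the 2 vehicle-treated C151S mice with low Arntl. Of the 383 genes higher in WT after CDDO-Me that were tested after vehicle, 97 were called in the same direction and 1 in the opposite direction. The median log2 fold change of the 388 was 0.89 after CDDO-Me, and that of those tested after vehicle was 0.38. For the 304 genes higher in C151S, 64 of 297 tested were called in the same direction after vehicle, and their median was -0.46 there. Both sets were chosen by their difference in the CDDO-Me-treated mice. A smaller median in other mice can follow from that choice alone, so that the medians do not answer the question. The difference between the treatments was then tested gene by gene. It passed at an FDR under 0.05 for 69 of 14542 genes (0.474%), with WT minus C151S larger after CDDO-Me for 60 (0.413%) and smaller for 9 (0.0619%). By DESeq2 these counts were 107 and 37. With each mouse left out the 60 ranged from 42 to 79, whereas the 9 became 24 without CDDO-Me-treated C151S replicate 2 and 4 or 5 without any of CDDO-Me-treated WT replicates 1 to 4, vehicle-treated C151S replicates 1 or 3, or vehicle-treated WT replicates 2 or 5. These 69 genes included 58 of the 388 genes higher in WT and 7 of the 304 higher in C151S. The comparisons after CDDO-Me and after vehicle share no library. The test of the difference between treatments uses the libraries of both, so that its overlap with the DEGs is not independent of them.

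The 58 genes included several NRF2 targets named above. The log2 difference between treatments was 4.84 for Cbr3 (SE 0.44, adjusted p = 3.2e-06, edgeR), 3.09 for Nqo1 (SE 0.32, adjusted p = 1.8e-05), 2.43 for Gstm1 (SE 0.31, adjusted p = 2.5e-04), and 2.29 for Srxn1 (SE 0.20, adjusted p = 3.2e-06). The test passed for 7 of the 27 quinone, carbonyl, and aldehyde enzymes, 6 of the 22 glutathione S-transferases, 4 of the 21 glucuronidation genes, 4 of the 17 heme and iron genes, and 4 of the 16 glutathione genes. The share over all 14542 genes tested, with WT minus C151S larger after CDDO-Me, was 0.413%. For Me1 the test did not pass (adjusted p = 0.9): its log2 fold change was 1.41 after vehicle and 1.59 after CDDO-Me, and it was called in both. Gstp1 and Abcc3 were likewise called in both, with log2 fold changes of 0.58 and 0.50 after vehicle. The test passed for neither (adjusted p = 0.077 and 0.12). Gstm1, Srxn1, Aox1, and Gstm4 were also called after vehicle, with log2 fold changes of 0.57, 0.56, 0.76, and 0.73, each smaller than after the drug. The same held for Tkt, Entpd5, Blvrb, and Ugt2b35, at 0.50, 0.54, 0.63, and 0.94 after vehicle, and for D630045J12Rik and Gm18635, at 1.32 and 1.80.

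**Figure D3:**
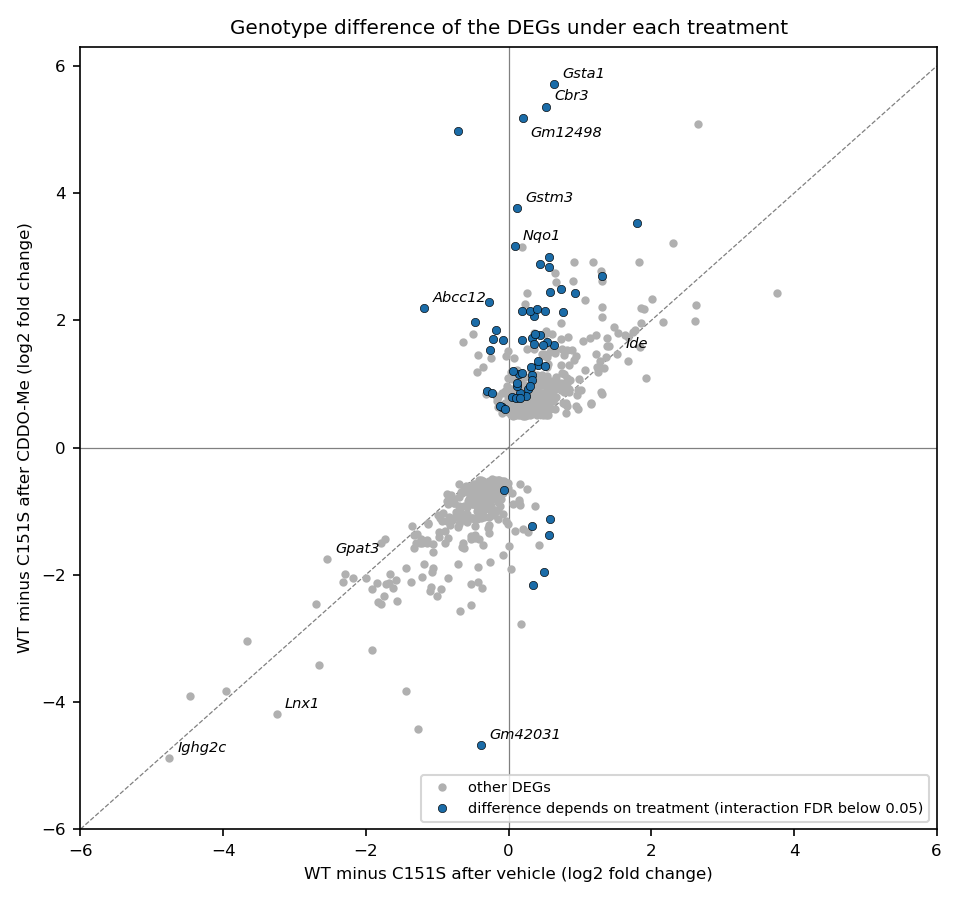
Log2 fold change between WT and C151S after vehicle (horizontal axis) and after CDDO-Me (vertical axis) for the 680 DEGs tested in both, with the 65 genes whose difference depends on the treatment in blue. The blue genes lie mainly near 0 after vehicle and far above 0 after CDDO-Me, whereas Ide, Gpat3, and Ighg2c lie near the dashed line of equal differences.

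On the C151S side the gene with the lowest p was Lnx1 (ENSMUSG00000029228.15, chromosome 5, 74592447 to 74702912), an E3 ubiquitin ligase. It was at 5.52, 2.997, 5.68, 5.20, and 5.10 CPM in C151S and at 0.274, 0.364, 0.212, 0.117, and 0.369 CPM in WT (C151S over WT, log2 fold change 4.20, SE 0.29, adjusted p = 1.4e-05, edgeR). After vehicle the C151S mice were spread, at 0.872, 4.73, 0.587, 7.45, and 6.59 CPM, above 0.483, 0.309, 0.551, 0.440, and 0.318 CPM in WT. Foxa3 (ENSMUSG00000040891.6, chromosome 7, 19013284 to 19023538), a forkhead factor of hepatocytes, was at 57.1, 58.5, 89.6, 87.0, and 88.5 CPM in C151S and 26.7, 26.7, 25.7, 25.5, and 28.4 CPM in WT (log2 fold change 1.53, SE 0.14, adjusted p = 7.2e-05). The WT mice lay within a narrow band, and among C151S mice the 3 with low Arntl were the highest. Without those mice the difference was smaller and still passed (log2 fold change, WT over C151S, -1.13, adjusted p = 6.0e-04).

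Other leading genes of this side were Camk2b, a calmodulin-dependent kinase subunit, at 18.2, 19.98, 34.2, 27.5, and 24.7 CPM in C151S and 7.67, 3.64, 6.56, 5.98, and 7.01 CPM in WT (log2 fold change 2.03, SE 0.21, adjusted p = 2.4e-04, edgeR), and Atp10d, of the phospholipid flippase family and annotated as a polymorphic pseudogene, at 8.41, 7.33, 9.07, 13.5, and 12.7 CPM and 3.17, 2.32, 2.82, 2.08, and 3.47 CPM (log2 fold change 1.90, SE 0.21, adjusted p = 2.8e-04). Gpat3, which starts glycerolipid synthesis, was at 18.7, 17.1, 14.0, 9.47, and 12.1 CPM in C151S and 4.70, 4.30, 5.26, 4.11, and 3.20 CPM in WT (log2 fold change 1.75, SE 0.20, adjusted p = 4.1e-04). It was separated without the drug too, at 9.73, 12.6, 10.2, 9.79, and 9.36 CPM in C151S and 1.89, 2.06, 2.28, 1.41, and 1.27 CPM in WT. Ephb4, an ephrin receptor, was at 36.1, 36.7, 45.8, 46.9, and 42.4 CPM and 25.8, 27.0, 23.8, 26.2, and 25.1 CPM, and Gin1 at 11.5, 13.5, 13.3, 13.4, and 13.02 CPM and 7.28, 6.88, 6.39, 6.89, and 8.86 CPM, both small differences with tight groups. Ephb4 and Atp10d were also called after vehicle, with log2 fold changes, C151S over WT, of 0.66 and 1.44 (adjusted p = 0.0051 and 0.026). The predicted gene Gm42031 was at 1.83, 7.71, 19.1, 10.5, and 17.8 CPM in C151S and 0.470, 0.628, 0.353, 0.176, and 0.615 CPM in WT, and it was called for the difference between treatments (-4.27 on the log2 scale, adjusted p = 0.03). Gm4316 was at 0.407, 2.51, 1.32, 1.75, and 2.05 CPM and 0, 0.0331, 0.106, 0.0586, and 0.154 CPM.

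**Figure D4:**
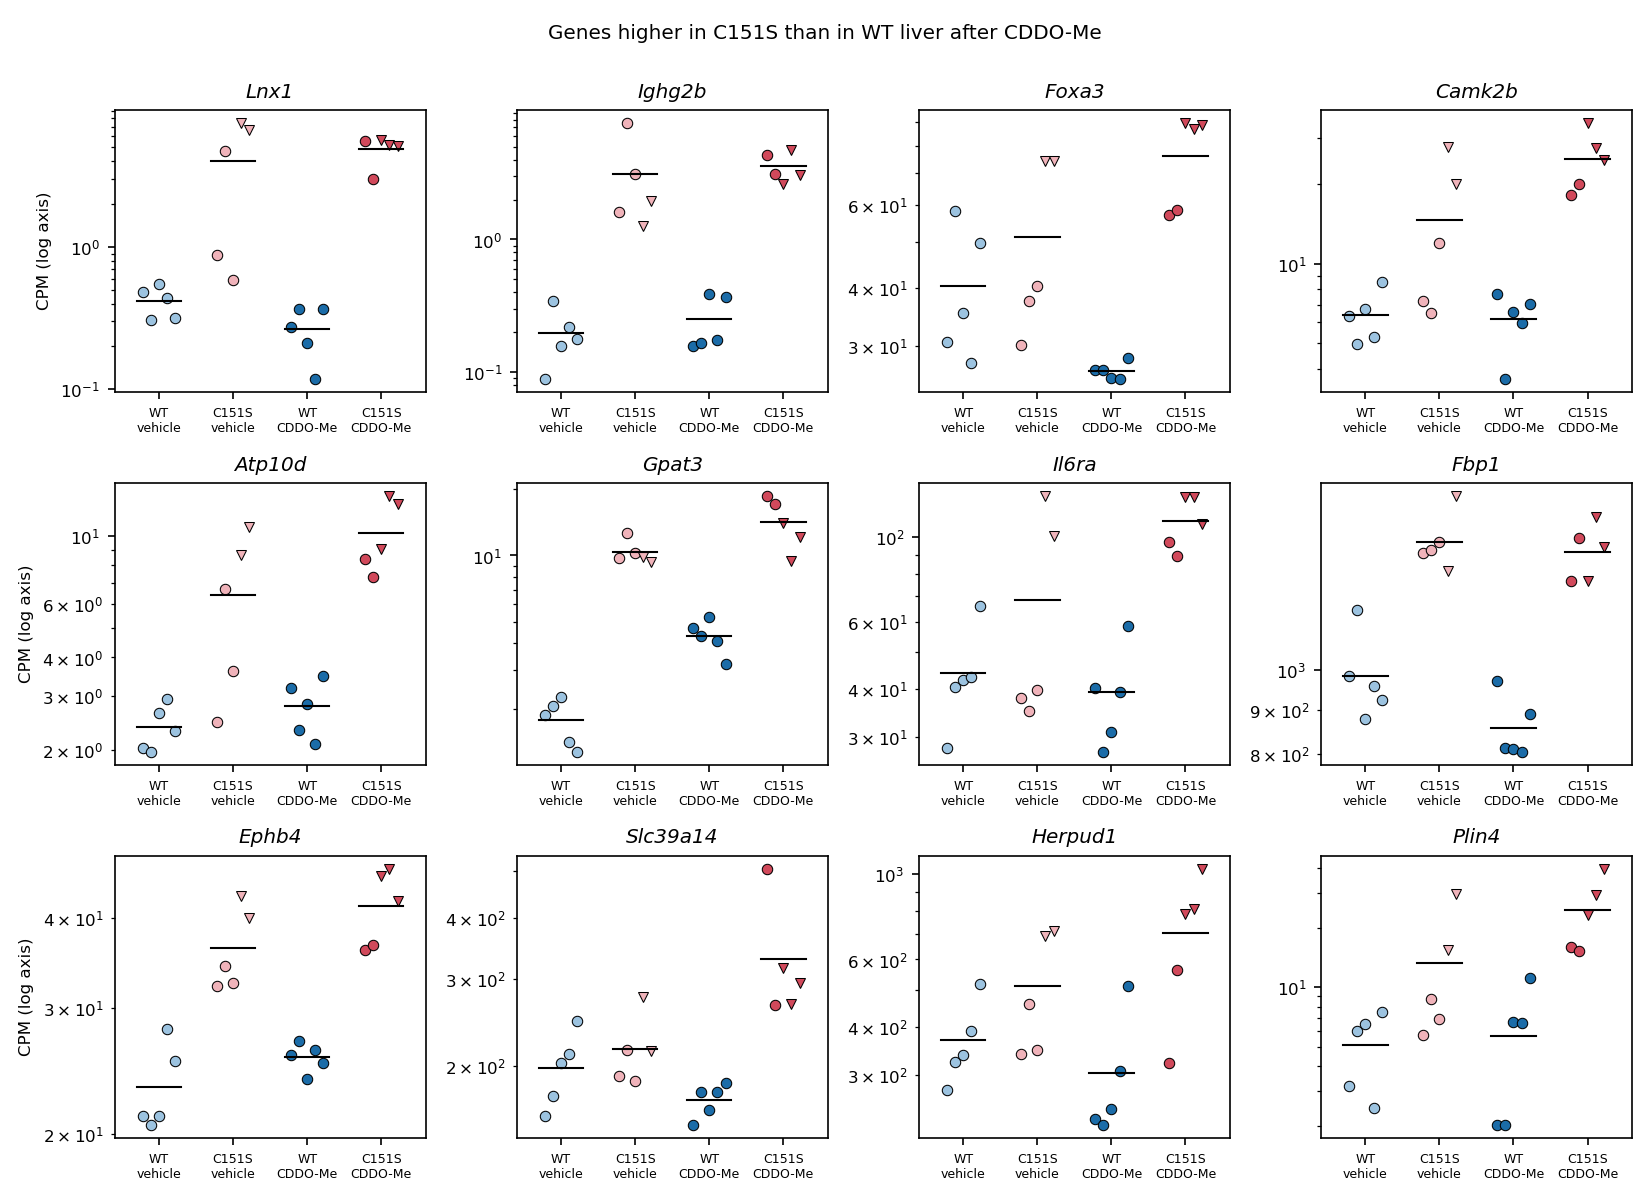
CPM on a log axis in each mouse for 12 genes higher in C151S mice after CDDO-Me, with vehicle-treated mice in pale colours, bars at the mean of 5 mice, and triangles for C151S mice with low Arntl. Gpat3 and Ighg2b are separated by genotype under both treatments, and Herpud1 overlaps after CDDO-Me.

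Of 9 immunoglobulin genes tested, 5 were called higher in C151S and 0 higher in WT, beside 2.20% and 2.80% of all genes tested. The other 4 did not pass, and of these Ighm and Ighd had log2 fold changes, WT over C151S, of 0.61 and 0.40. Ighg2b was at 4.34, 3.10, 2.64, 4.75, and 3.05 CPM in C151S and 0.157, 0.165, 0.388, 0.176, and 0.369 CPM in WT (log2 fold change 3.83, SE 0.30, adjusted p = 3.2e-05, edgeR), and after vehicle at 1.62, 7.58, 3.11, 1.27, and 1.94 CPM and 0.0879, 0.343, 0.157, 0.220, and 0.177 CPM. Ighg2c had 319 counts over the 5 C151S libraries and 9 over the 5 WT libraries, a ratio of 30.9 (95% interval 16.1 to 68.2, exact binomial, counting error only). For the variable segment Ighv1-81 the counts were 83 and 2, a ratio of 36.2 (95% interval 9.71 to 304). Igkc and Jchain, the kappa constant region and the joining chain, were singled out after their values were seen because they assemble with the heavy chains. Igkc was at 7.97, 7.53, 10.5, 13.1, and 10.2 CPM in C151S and 3.25, 2.25, 2.82, 3.72, and 5.53 CPM in WT, and Jchain at 2.20, 1.79, 3.04, 3.05, and 2.10 CPM and 1.06, 0.496, 0.847, 1.11, and 0.984 CPM. Their log2 fold changes, C151S over WT, were 1.15 and 1.16 without the low-Arntl mice, against 1.501 and 1.45 with them, and both calls were lost (adjusted p = 0.088 and 0.11). Igkc and Jchain were also called after vehicle, with log2 fold changes, WT over C151S, of -1.29 and -1.15 (adjusted p = 0.0075 and 0.017, edgeR). Of the 9 markers of T, B, and NK cells tested, 0 were called by edgeR or by DESeq2 (2 at an unadjusted p under 0.05), and their summed level was 3.19 to 5.49 CPM in C151S and 3.95 to 7.38 CPM in WT. Colony and genotype cannot be told apart for these transcripts either.

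By edgeR the other lists held few genes higher in C151S, where the share over all genes tested was 2.20%. In the longer of these lists 1 called gene is near that share. Il6ra, a receptor subunit for interleukin-6 and the only called member of 26 acute phase genes, was at 96.9, 89.4, 127, 127, and 108 CPM in C151S and 40.3, 27.4, 30.9, 39.3, and 58.7 CPM in WT (log2 fold change 1.501, SE 0.19, adjusted p = 0.001, edgeR). The median log2 fold change of that list, WT over C151S, was -0.56, beside -0.027 over all genes tested. DESeq2 called 4 of its genes higher in C151S and 0 higher in WT. Without the low-Arntl mice the list's median was -1.25, with 3 genes called higher in C151S by edgeR. Slc39a14, a zinc and iron importer, was at 505, 266, 316, 268, and 296 CPM and 150.8, 176, 162, 177, and 185 CPM, with replicate 1 far above the other C151S mice (log2 fold change 0.98, SE 0.17, adjusted p = 0.0075). The interferon response list gave 3 of 36 higher in C151S and 1 higher in WT: Usp18, which restrains interferon signalling, was at 7.999, 9.76, 14.9, 10.3, and 9.09 CPM in C151S and 4.54, 5.49, 4.20, 5.54, and 4.70 CPM in WT (log2 fold change 1.10, SE 0.17, adjusted p = 0.0029), followed by the antiviral sensors Oas2 and Oas3. Cxcl13 and Tnfaip3 were the 2 of 17 chemokine and inflammatory genes that were higher in C151S. By DESeq2 the interferon response list gave 7 higher in C151S and 1 higher in WT, and the chemokine and inflammatory list gave 5 and 0. Without the low-Arntl mice the log2 fold changes of Oas2, Oas3, and Tnfaip3, C151S over WT, were 1.53, 1.57, and 0.68 against 1.43, 1.32, and 0.78 with them, and the calls were lost (adjusted p = 0.094, 0.1, and 0.27). Neutrophil markers summed to at most 20.3 CPM in C151S and 4.90 CPM in WT, and their part in these differences was not tested.

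Lipid genes went both ways. Plin4, a lipid droplet coat protein, was at 16.0, 15.2, 23.03, 29.0, and 39.5 CPM in C151S and 2.04, 2.02, 6.67, 6.66, and 11.1 CPM in WT (log2 fold change 2.12, SE 0.45, adjusted p = 0.019, edgeR). Plin5 differed by 0.63 log2 units, C151S over WT (SE 0.15, adjusted p = 0.031). Cpt1a, the gatekeeper of mitochondrial fatty acid oxidation, and Cyp4a31, a fatty acid hydroxylase, were higher in C151S by 0.58 and 1.09, whereas Pdk4 and Cyp4a12a were higher in WT by 1.80 and 1.08. That made 3 of 31 PPAR-alpha and fatty acid oxidation genes higher in WT and 2 higher in C151S, and lipogenesis gave 2 and 2 of 24. Without the low-Arntl mice the log2 fold changes, C151S over WT, of Plin4, Plin5, and Cpt1a were 1.46, 0.33, and 0.50, that of Pdk4, WT over C151S, was 1.20, and the 4 calls were lost (adjusted p = 0.22, 0.23, 0.27, and 0.1). Of 24 genes of cholesterol synthesis only Insig1, which holds back sterol synthesis, was called (log2 fold change 0.97, SE 0.18, adjusted p = 0.0088, WT over C151S). The median over that list was 0.85, beside -0.027 over all genes tested, and without the low-Arntl mice it was 0.59 with 0 genes called. Insig1, Cyp4a12a, and Cpt1a were also called after vehicle. Their log2 fold changes there, WT over C151S, were 0.80, 0.98, and -0.51 (adjusted p = 0.0078, 0.0053, and 0.025, edgeR).

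The heat shock chaperones gave 3 of 20 higher in C151S and 0 higher in WT. Hspa1b, an inducible HSP70, was at 5.08, 3.23, 11.2, 7.43, and 8.20 CPM in C151S and 1.76, 2.05, 2.15, 2.698, and 3.84 CPM in WT, with C151S replicate 2 inside the WT range (log2 fold change 1.498, SE 0.31, adjusted p = 0.018, edgeR). Dnajb1 and Hspb8 differed by 0.76 and 0.63. Without the low-Arntl mice the log2 fold changes, C151S over WT, were 0.73 for Hspa1b, 0.32 for Dnajb1, and 0.60 for Hspb8, and none of the 3 was called (adjusted p = 0.29, 0.48, and 0.25). Herpud1, a factor of endoplasmic reticulum degradation and the only called gene of 24 in its list, was at 323, 563, 788, 810.2, and 1032 CPM in C151S and 231, 222, 245, 308, and 513 CPM in WT (log2 fold change 1.23, SE 0.31, adjusted p = 0.037). Its call was lost without the low-Arntl mice (log2 fold change 0.56, adjusted p = 0.45). After vehicle the same list had 13 genes higher in WT.

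Of 19 clock genes 2 were called, Ciart and Per1, both higher in C151S. Ciart, a repressor of the clock, was at 6.34, 2.82, 46.4, 70.2, and 62.2 CPM in C151S and 4.62, 4.43, 2.33, 3.64, and 7.93 CPM in WT (log2 fold change 3.04, SE 0.75, adjusted p = 0.035, edgeR). Its high values were those of replicates 3, 4, and 5. Ciart was also called after vehicle (log2 fold change, WT over C151S, -3.66, adjusted p = 0.045, edgeR). Per1, a core repressor, was at 61.0, 28.5, 78.3, 101, and 92.8 CPM and 13.7, 13.1, 20.4, 35.3, and 40.0 CPM (log2 fold change 1.58, SE 0.38, adjusted p = 0.031). Without the low-Arntl mice neither was called. The log2 fold change of Per1, C151S over WT, was then 0.87, with its direction kept, and that of Ciart, WT over C151S, was 0.0055. The 2 sets of C151S mice did not overlap for 16 of the 19 clock genes. Arntl, by which the sets were cut, is among the 16 by construction. The share of all genes for which the sets do not overlap was not computed. Of these 16 genes the range of the WT mice overlapped the high-Arntl set alone for 10 (Arntl, Clock, and Per2 among them), the low-Arntl set alone for 2 (Cry1 and Bhlhe41), both for Nr1d2, and neither for 3 (Cry2, Dbp, and Tef). The time of day of tissue collection was not used here.

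**Figure D5:**
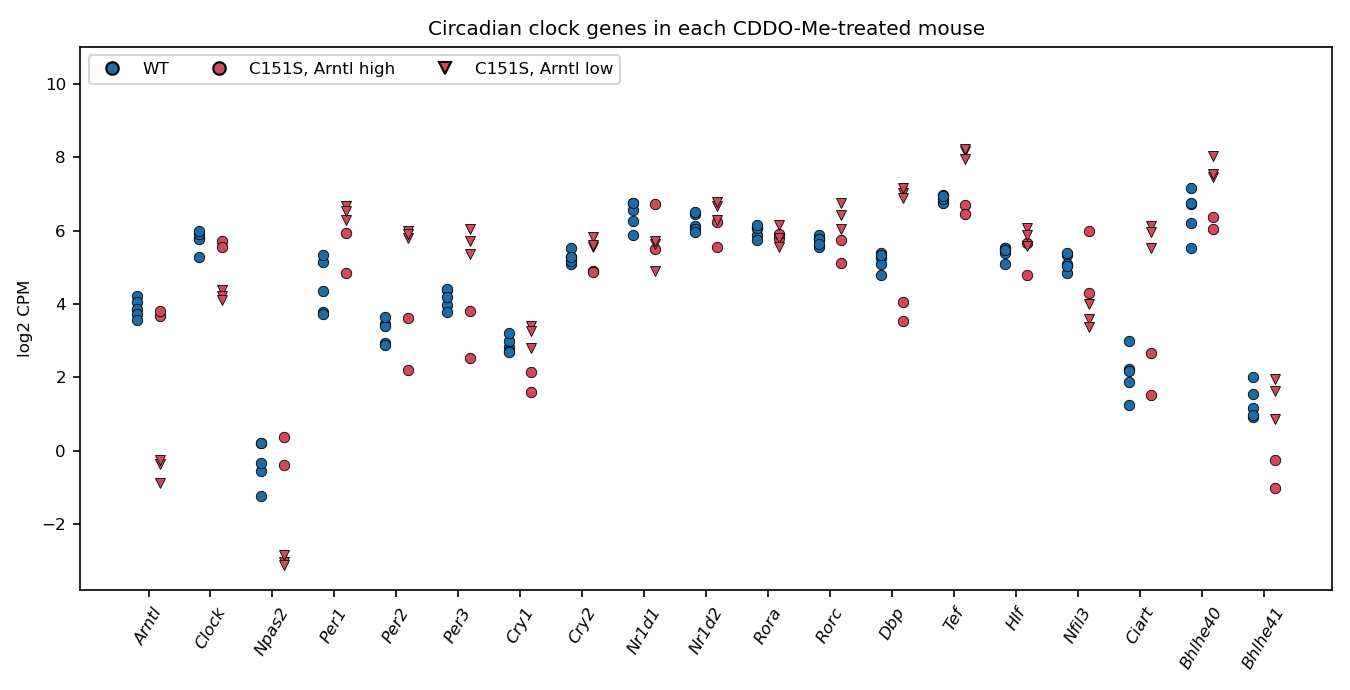
Log2 CPM of 19 clock genes in each CDDO-Me-treated mouse, with WT in blue, C151S mice with high Arntl as red circles, and C151S mice with low Arntl as red triangles. Triangles and red circles do not overlap for 16 genes, among them Arntl, by which the sets were defined. The WT mice lie near the red circles for Arntl, Per2, and Ciart, near the triangles for Cry1 and Bhlhe41, and between them for Dbp.

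The remaining lists had at most 3 called genes. In the longer of them 1 called gene is near the share over all genes tested, 2.80% higher in WT and 2.20% higher in C151S. Bile acid synthesis and transport gave 1 of 19 higher in WT, growth hormone and STAT5 dependent genes 3 of 31, and the proteasome 1 of 32 (Psmd5), with 0 higher in C151S in each. By edgeR 0 of 32 complement and coagulation genes, 0 of 25 genes of mitosis and DNA replication, and 0 of 21 genes of extracellular matrix were called. At an unadjusted p under 0.05 the numbers were 6, 10, and 5, and by DESeq2 2, 4, and 2, all of the latter higher in C151S. Klf2 was higher in C151S by 1.20 on the log2 scale and was the only such immediate early gene. It was also called after vehicle (log2 fold change, WT over C151S, -0.69, adjusted p = 0.037, edgeR). Among cell markers Tat was higher in C151S (log2 fold change 1.06, SE 0.25, adjusted p = 0.031, edgeR) and Marco, of Kupffer cells, was higher in WT (log2 fold change 1.13, SE 0.28, adjusted p = 0.035). The rest of Marco's list did not follow it. Of the 10 Kupffer cell and macrophage markers tested, unadjusted p (edgeR) was under 0.05 for 1 higher in WT and 4 higher in C151S. DESeq2 called 1, higher in WT. These markers summed to 226 to 336 CPM in WT and 238 to 461 CPM in C151S. When the low-Arntl mice were left out, Marco differed by 1.05, and Klf2 and Tat, C151S over WT, by 0.63 and 0.64, none of them called (adjusted p = 0.24, 0.38, and 0.33). Markers of cholangiocytes, sinusoidal endothelium, stellate cells, and erythroid cells gave 0 called genes by edgeR. Unadjusted p was under 0.05 for 1, 2, 4, and 2 of them, and DESeq2 called 0, 0, 1, and 1.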

How the data were processed

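Livers of 30 mice in 6 groups were profiled by stranded mRNA sequencing with paired-end reads. The authors checked reads with fastp, aligned them to mm10 with STAR 2.7.7, and deposited raw counts per gene (GENCODE annotation) from the second strand, with no normalization. The 4 STAR summary rows (reads not assigned to a gene) were left out, which left 55335 genes, of which 55154 have a symbol and position in GENCODE M21 (GRCm38, the build of mm10). Between 73.0% and 79.5% of the reads of the 10 libraries compared fell on genes. STAR's gene counts take uniquely mapped reads alone, so that near-identical genes are counted in part.

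Groups came from the labels. CDDO-Me-treated WT and C151S mice (5 each) were compared with edgeR 4.0.16 (R 4.3.3), after the filterByExpr filter and normalization by the trimmed mean of M values, with the quasi-likelihood F-test (legacy fit, as in earlier releases) with Benjamini-Hochberg adjustment over all genes tested. DEGs had an FDR under 0.05 and a log2 fold change of 0.5 or more in either direction. Each SE is the log2 fold change over the root of F. Vehicle-treated mice were compared in the same way, and the difference between treatments was tested as an interaction over 20 libraries. Log2 CPM used a prior count of 2. The floor of detection was set at 3 counts per library. Dates of isolation, a covariate in the study, were not used here. Reads carry no molecular identifiers, so that the floor and intervals cover counting error only. The fits were also run on simulated counts, drawn independently for each gene. These hold no split among C151S mice, so that they do not test the fits under the Arntl sets.

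The alternatives were DESeq2 1.42.0, other normalizations (upper quartile, DESeq2 size factors), the edgeR 4 fit, no filter, a filter of 10 counts in all libraries, a replicate block, 1 fit of all 30 libraries, no fold threshold, each mouse left out, and the C151S mice with low or with high Arntl left out. The 29 gene lists, 10 marker lists, and tests were chosen with earlier results of these data known. Named genes are Nfe2l2, Keap1, and 5 target genes followed in the study, the 10 DEGs of lowest p in each direction, the 5 of largest change without overlap, and up to 5 called members of each list in each direction or members needed beside them. Ide, Igkc, and Jchain were chosen after their values were seen. No symbol match was found for Nnt, Ddit3, Ctgf, and C5.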

Additional observations from a re-analysis of the deposited data

Results flagged for a closer look

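The difference between WT and C151S mice depended on the treatment for 36 of the genes named (interaction test of edgeR, FDR under 0.05). For 35 of them WT minus C151S was larger after CDDO-Me. Among quinone, carbonyl, and aldehyde enzymes the log2 difference between treatments was 3.09 for Nqo1, 4.84 for Cbr3, 1.77 for Cbr1, 1.35 for Ephx1, 1.38 for Aox1, 1.93 for Akr1b8, and 1.15 for Htatip2. In glutathione S-transferases it was 2.43 for Gstm1, 1.501 for Gstm2, 3.66 for Gstm3, 1.77 for Gstm4, 5.10 for Gsta1, and 1.19 for Mgst3. For glutathione and thioredoxin genes the values were 1.64 for Gclc, 0.75 for Gclm, 0.89 for Gsr, 2.29 for Srxn1, and 0.95 for Txnrd1. Genes of sugar metabolism and glucuronidation gave 1.40 for Pgd, 0.78 for Tkt, 1.29 for Gbe1, 1.85 for Ugdh, 1.51 for Ugt2b35, 1.13 for Entpd5, and 1.02 for Slc35d1. In genes of heme and iron, esterases, and transporters it was 0.98 for Blvrb, 0.91 for Ftl1, 1.00 for Slc48a1, 1.15 for Ces1b, 1.89 for Abcc4, and 3.38 for Abcc12. Outside the lists it was 1.39 for D630045J12Rik, 4.99 for Gm12498, 1.72 for Gm34934, and 1.73 for Gm18635. For Gm42031, higher in C151S, it was -4.27. All of these genes were singled out among the 14542 tested, and every value is from the same 20 libraries.

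A lone mouse lay far from the other 4 of its group in 17 of 204 groups of named genes (gap over range above 0.71, Dixon's criterion for 5 values), where chance flags about 1 in 20 groups. WT replicate 5 stood apart from its group for Nqo1 (109 CPM against 48.3 to 57.1 CPM), Aldh1a1 (1843 CPM against 2712 to 3006 CPM), Hmox1 (21.9 CPM against 15.1 to 15.9 CPM), Myc (36.8 CPM against 17.1 to 22.2 CPM), Foxo1 (50.8 CPM against 25.5 to 31.8 CPM), Hspb8 (228 CPM against 163 to 169 CPM), and Tat (3001 CPM against 1352 to 1651 CPM). WT replicate 1 stood apart from its group for Gstm2 (301 CPM against 161 to 196 CPM). C151S replicate 1 stood apart from its group for Ephx1 (212 CPM against 383 to 436 CPM), Gin1 (11.5 CPM against 13.02 to 13.5 CPM), and Slc39a14 (505 CPM against 266 to 316 CPM). C151S replicate 2 stood apart from its group for Lnx1 (2.997 CPM against 5.10 to 5.68 CPM). C151S replicate 3 stood apart from its group for Ugt2b35 (229 CPM against 130.4 to 136 CPM), Ces1g (202 CPM against 46.2 to 83.5 CPM), Ces2c (10.51 CPM against 1.73 to 3.64 CPM), and Gm18635 (2.54 CPM against 1.02 to 1.36 CPM). C151S replicate 4 stood apart from its group for Ighg2c (3.98 CPM against 0.974 to 1.63 CPM).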

How the results depend on the processing

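The 692 DEGs between CDDO-Me-treated WT and C151S mice became 1137 with DESeq2 (561 higher in WT and 576 higher in C151S), 294 without the low-Arntl C151S mice, and 1858 without the high-Arntl C151S mice. With each mouse left out in turn the count ranged from 379 to 1303. Between vehicle-treated mice the 675 DEGs became 382 in 1 fit of all libraries, 1160 without the threshold on the fold change, and 2030 without the low-Arntl C151S mice, and ranged from 390 to 1168 with each mouse left out. Upper-quartile normalization there gave 712 DEGs with 252 higher in WT, against 314 of 675. The 69 genes whose genotype difference depended on treatment became 144 with DESeq2 (107 with WT minus C151S larger after CDDO-Me and 37 smaller). All other alternatives run for these counts stayed within 1.5 times. The cause of these shifts was not tested, other than that leaving out mice leaves fewer samples.

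Replicate numbers are shared between groups. Same-numbered WT and C151S mice deviated together in some numbers only (correlation -0.15 to 0.39, CDDO-Me), so that the numbers were not taken as pairs. With the replicate block 827 genes were called between CDDO-Me-treated mice (612 of them shared with the 692), 567 between vehicle-treated mice, and 70 for the difference between treatments.

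For the 59 named DEGs higher in WT, 1146 of 1174 values under the alternatives kept direction and call, 28 lost the call, and 0 reversed. For the 36 higher in C151S these numbers were 590, 121, and 1 of 712. The reversal was Ciart without the low-Arntl C151S mice, at a log2 fold change of 0.00546. Most named genes were chosen for low p or large change in these same libraries, so that their calls are kept in part by choice. Without the low-Arntl mice 52 of the 59 and 18 of the 36 kept the call. Of all DEGs 148 of the 388 higher in WT and 49 of the 304 higher in C151S did. Depth limits the genes near the floor, such as Gpx2, Ces1h, and Ighv1-81, which rest on few counts in the lower group.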
